A study of Mus musculus with 6 samples.

Results

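The proteasome genes were examined in the mouse macrophage-like line RAW264.7 after endotoxin treatment, with and without ultrasound. Members were the protein-coding genes of the deposited gene table whose symbols name a proteasome subunit, activator, regulator or dedicated assembly chaperone (Psma1 to Psma8, the Psmb, Psmc and Psmd series, Psme1 to Psme4, Psmf1 and Psmg1 to Psmg4). These were 48 of 39089 genes. According to the labels all 6 libraries came from wild-type cells kept for 48 h in 100 ng/mL of the bacterial endotoxin lipopolysaccharide (LPS). For 3 of them the cells had also been exposed to low-intensity pulsed ultrasound (LIPUS), with an intensity of 45 mW/cm2 and a duration of 25 min, in 2 sessions with a 24 h interval. No library without LPS was analysed here, so the response of these genes to LPS itself was not measured. The samples are repeats of 1 cell line, and nothing in the labels says that they were separate cultures, so p-values measure the spread between these samples only.

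The proteasome is the protease that degrades ubiquitin-tagged proteins and supplies peptides for MHC class I. Its barrel-shaped core has outer alpha rings that gate entry and inner beta rings that hold the catalytic sites of Psmb5 (chymotrypsin-like activity), Psmb6 (caspase-like) and Psmb7 (trypsin-like). In the immunoproteasome, which interferons and inflammatory signals induce in many cells, Psmb8, Psmb9 and Psmb10 take the places of Psmb5, Psmb6 and Psmb7. A regulatory particle of ATPases, base and lid subunits binds, unfolds and feeds tagged proteins into the core, and the Psme activators are alternative caps.

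Each library held 14171061 to 15956693 counts, with the LPS libraries (14984236 to 15956693) slightly deeper than the LIPUS libraries (14171061 to 14632288). All 8 macrophage markers examined were detected, at a summed 18145 to 18666 TPM (counts per gene length, with each library brought to one common sum) with LPS and 17432 to 18743 TPM with LIPUS. Lyz2 made up most of these sums, with means of 15953 TPM (LPS) and 15578 TPM (LIPUS). The lowest of the 8 was Fcgr1, with means of 8.13 TPM (LPS) and 8.77 TPM (LIPUS). The 4 epithelial markers, including Epcam, were at 0 in every library. Summed levels of the fibroblast, T cell, B cell and endothelial markers were at most 2.60, 0.170, 0.775 and 0.249 TPM. Each of 47 members, all except Psmb11, had at least 10 counts in every library. These are bulk libraries, in which a change in a part of the cells and a smaller change in all of them cannot be told apart.

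The constitutive subunits and their immunoproteasome counterparts stood in different proportions at the 3 catalytic positions. Psmb8 was slightly above Psmb5, whereas Psmb9 and Psmb10 were far below Psmb6 and Psmb7. Psmb5 (mm10, chromosome 14, 54614120 to 54617995, minus strand) had 139.4, 145.5 and 138.3 TPM in the LPS libraries and 139.6, 127.6 and 142.3 TPM with LIPUS. Psmb8 (chromosome 17, 34198195 to 34201454, plus strand) had 155.5, 155.9 and 151.3 TPM with LPS and 152.5, 147.2 and 160.5 TPM with LIPUS. Psmb8 exceeded Psmb5 in each of the 6 libraries, and the lowest Psmb8 value lay above the highest Psmb5 value. The ratio was 1.11 ± 0.03 (SD, n = 6, both groups).

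Psmb6 (chromosome 11, 70525324 to 70527858, plus strand) had 440.7, 466.1 and 479.1 TPM with LPS and 481.5, 468.8 and 475.6 TPM with LIPUS. Psmb9 (chromosome 17, 34182030 to 34187330, minus strand) had 54.2, 62.3 and 54.5 TPM with LPS and 57.9, 54.6 and 56.8 TPM with LIPUS. Psmb6 was thus 8.28 ± 0.45-fold (SD, n = 6) above Psmb9. Psmb6 had the second highest mean of all members. The mean of Psmb9 (56.7 TPM) lay just below that of Psma3 (58.9 TPM), the lowest of the 7 alpha ring genes, and their ranges overlapped.

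Psmb7 (chromosome 2, 38588046 to 38643952, minus strand) had 251.6, 245.8 and 250.2 TPM with LPS and 255.0, 255.6 and 260.2 TPM with LIPUS. Psmb10 (chromosome 8, 105935728 to 105938392, minus strand) had 18.6, 19.6 and 18.6 TPM with LPS and 16.3, 16.7 and 21.5 TPM with LIPUS. Psmb7 was 13.8 ± 1.46-fold (SD, n = 6) above Psmb10, the lowest of the 6 catalytic genes. In order of level they ran Psmb6, Psmb7, Psmb8, Psmb5, Psmb9 and Psmb10, and no neighbouring pair in that order had overlapping ranges over the 6 libraries.

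**Figure D1:**
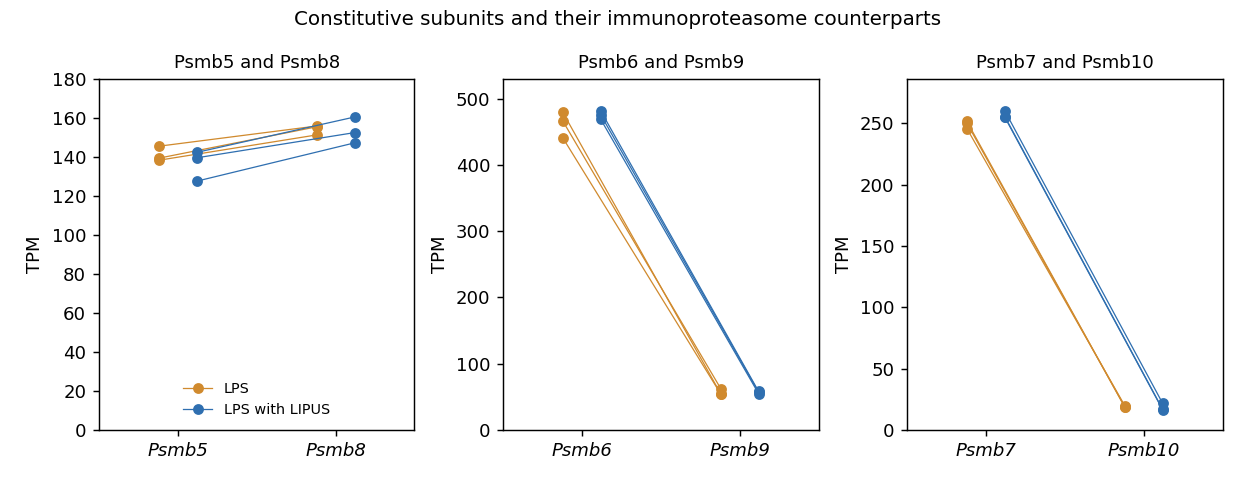
TPM of each constitutive catalytic gene and its immunoproteasome counterpart, with 1 line per library (3 LPS, 3 LPS with LIPUS) and a linear axis from 0 in each panel. The lines rise from Psmb5 to Psmb8 and fall steeply from Psmb6 to Psmb9 and from Psmb7 to Psmb10 in all 6 libraries.

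Expressed as a share of the pair's summed TPM, Psmb8 made up 52.2% ± 0.51 in the LPS group and 52.9% ± 0.68 in the LIPUS group (SD, n = 3 each). Psmb9 made up 10.98% ± 0.79 and 10.6% ± 0.16, and Psmb10 7.07% ± 0.29 and 6.59% ± 0.92. The groups overlapped for every pair. The log2 ratio of Psmb8 to Psmb5 differed between groups (LIPUS minus LPS) by 0.04 ± 0.03 (SE, exact permutation p = 0.3). For Psmb9 to Psmb6 the difference was -0.05 ± 0.07 (exact permutation p = 0.6), and for Psmb10 to Psmb7 it was -0.12 ± 0.13 (exact permutation p = 0.4). All tests were two-sided, the adjusted p over the 3 pairs was 0.6 for each, and 3 libraries against 3 cannot give a p below 0.1. Levels of different genes depend on the length used to scale them. With the shortest curated RefSeq transcript in place of the deposited gene length, chosen after the data were seen, the ratio of Psmb9 to Psmb6 was 0.152 in place of 0.121. The ratio of Psmb10 to Psmb7 moved the other way, to 0.0672 in place of 0.0733, and that of Psmb8 to Psmb5 stayed at 1.11.

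The start regions of the catalytic genes differ in sequence, and those printed here were chosen because they hold the letters of a response element, or because 2 genes of the peptide supply share them. Sequences are RefSeq's on GRCm38.p6, written 5′ to 3′ on the gene's strand and ending at the base before RefSeq's annotated start, except for Psmb8, whose stretch ends further upstream. In Psmb5 (chr14:54617996-54618055, minus strand) and Psmb6 (chr11:70525327-70525356, plus strand) the capitals mark a match to the core of the antioxidant response element, TGACNNNGC. Nfe2l1 raises proteasome genes through this type of element, but the letters were about as frequent in members (15%) as in all genes searched (13.99%). The match lies 47 to 39 bases before the start of Psmb5 and 9 to 1 bases before RefSeq's start of Psmb6, inside the longer gene bounds of the deposited table. In Psmb8 (chr17:34198075-34198134, plus strand) the capitals mark a match to the gamma-activated site TTCNNNGAA, an element of interferon-responsive genes, 97 to 89 bases before the start.
Psmb5: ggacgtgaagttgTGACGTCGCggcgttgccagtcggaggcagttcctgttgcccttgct
Psmb6: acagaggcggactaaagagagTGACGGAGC
Psmb8: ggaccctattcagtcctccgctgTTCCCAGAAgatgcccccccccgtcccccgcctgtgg

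Psmb9 and Tap1, a subunit of the transporter that carries peptides into the endoplasmic reticulum, start 225 bases apart on opposite strands, and Psmb8 begins 969 bases beyond Tap1. The whole stretch between the Psmb9 and Tap1 starts (chr17:34187331-34187555) is given on the Psmb9 strand, so its last base precedes Psmb9. Capitals mark a GC box (GGGCGG, 55 to 50 bases before Psmb9) and a CCAAT box on the other strand (8 to 4 bases before it).
Psmb9: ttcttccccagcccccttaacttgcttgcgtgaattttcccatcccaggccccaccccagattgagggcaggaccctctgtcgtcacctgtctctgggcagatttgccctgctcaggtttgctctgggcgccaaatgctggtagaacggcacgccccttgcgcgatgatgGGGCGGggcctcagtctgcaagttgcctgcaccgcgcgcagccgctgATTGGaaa

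Across the 2 directions of this stretch the levels were 57.0 ± 4.60 TPM (LPS) and 56.4 ± 1.70 TPM (LIPUS) for Psmb9 and 101.0 ± 6.13 and 100.8 ± 8.11 TPM for Tap1 (SD, n = 3 each). Neither gene differed between groups beyond its spread. The log2 fold change was -0.03 ± 0.08 for Psmb9 and -0.02 ± 0.05 for Tap1 (SE, edgeR adjusted p = 0.999 for both).

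RefSeq's promoter table held 40 of the 48 members, each with 250 bases before and 50 after a start, and motifs were searched on both strands. The ETS-family letters CCGGAAG were found in 14 of 40 members (35%), against 9.93% of 27025 genes in the table. The GC box GGGCGG was in 23 (57.5%, against 38.2%), the CCAAT box in 14 (35%, against 41.1%) and the antioxidant response core in 6 (15%, against 13.99%). The interferon-stimulated response element (GAAA, any pair of bases, GAAA) was in 5 (12.5%, against 3.99%), namely Psmb3, Psmd4, Psmd9, Psme1 and Psmg4, and TTCNNNGAA in 3 (7.5%, against 9.55%), namely Psmb8, Psmd2 and Psmg1. A base can count for more than 1 motif, and a match is a description of letters, not of binding.

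The genes of the core, the base and the lid were mostly between 50 and 400 TPM, and the highest member was a lid gene. Mean TPM over the 6 libraries exceeded 100 in 27 of 48 members. Psmd8, a lid subunit, had 1033, 1022 and 1056 TPM with LPS and 1047, 1046 and 1032 TPM with LIPUS. The other 7 lid genes had means of 54.7 TPM (Psmd6) to 137.6 TPM (Psmd3), so Psmd8 was 8.88-fold above their median. It was also the steadiest of the tested members in TPM, with a coefficient of variation of 1.19% over the 6 libraries. In counts brought to a common library size (CPM), Psmd8 ran from 710.2 to 808.1 and Psme3 from 89.2 to 92.7. Psmd8 was thus not the steadiest on that scale. Psmd14, the deubiquitinase of the lid, had a mean of 131.6 TPM.

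Within the alpha ring the means ran from 58.9 TPM (Psma3) to 296.7 TPM (Psma5), a 5.04-fold range. The 4 structural beta genes Psmb4, Psmb1, Psmb3 and Psmb2 had means of 369.4, 352.965, 300.4 and 139.998 TPM. The 6 ATPase genes ran from 61.4 TPM (Psmc4) to 179.0 TPM (Psmc1), a 2.92-fold range, and the structural beta genes over a 2.64-fold range. In the base, Psmd4, a ubiquitin receptor, had 380.4 TPM, Psmd2 228.4 TPM and Psmd1 95.99 TPM. Of the 47 neighbouring pairs in the order of all members, 36 had overlapping ranges, so most of the order is not resolved. The lengths matter here too: with the shortest curated transcript, Psma7 had 342.4 in place of 205 TPM and Psmd11 207.9 in place of 122.1 TPM.

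Tissue-restricted forms were low or near 0. Psma8, the germ-line alpha subunit that can stand in for Psma7, had 2.53 to 4.13 TPM from 35 to 59 counts per library, and Psma7 was 47.8 to 78.3 times higher. Psmb11, the thymus-specific catalytic subunit, had 0, 0 and 2 counts with LPS and 1, 2 and 0 with LIPUS. Those counts are within the 3 that a count of 0 allows per library, and no fold is given.

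**Figure D2:**
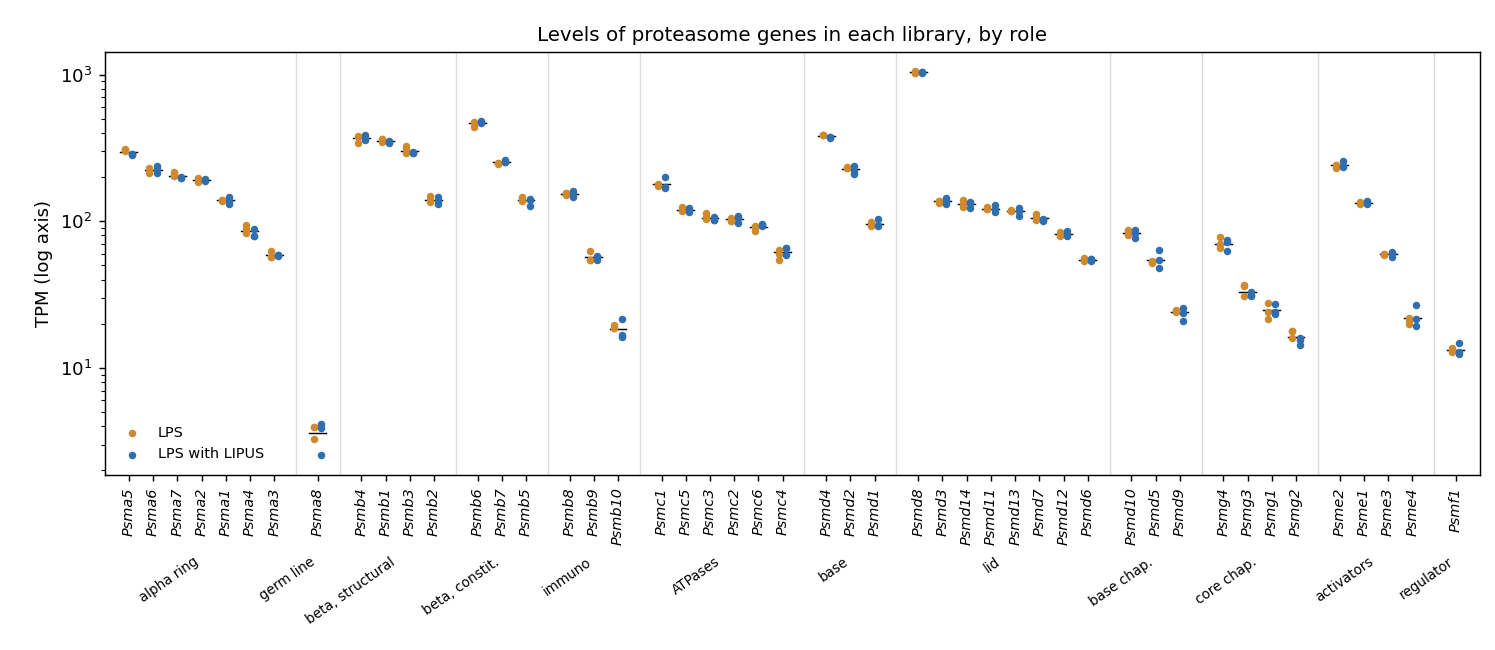
TPM (log axis) of 47 proteasome genes in each of the 6 libraries, grouped by role. Points are libraries, coloured by group, and the black line is the mean of all 6. Psmb11 is left out because it was at 0 in 3 libraries. Psmd8 stands near 1040 TPM and Psma8 near 3.62 TPM, and the colours interleave for most genes.

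The activators form alternative caps of the core. Psme1 and Psme2 encode the alpha and beta subunits of the interferon-inducible PA28 cap, Psme3 the nuclear PA28 gamma and Psme4 the large activator PA200. Psme2 had 231.6, 243.6 and 243.1 TPM with LPS and 235.0, 237.2 and 256.9 TPM with LIPUS. Psme1 had 134.6, 133.4 and 130.9 TPM with LPS and 130.7, 136.2 and 136.9 TPM with LIPUS. In each library the 2 genes kept a similar proportion, with Psme2 1.72 to 1.88 times Psme1 by the deposited lengths. With the shortest curated transcript the mean of Psme2 was 295.7 in place of 241.2 TPM, and that of Psme1 stayed at 133.8 TPM. The size of the ratio thus depends on the length used. Psme3 had 58.9, 59.6 and 60.01 TPM with LPS and 60.5, 57.1 and 61.9 TPM with LIPUS, and all 3 activators overlapped between the groups. Psmf1, a binding protein of the core known as PI31, had a mean of 13.3 TPM. The core assembly chaperones Psmg1 to Psmg4 had means of 16.2 TPM (Psmg2) to 70.4 TPM (Psmg4), and the base chaperones Psmd5, Psmd9 and Psmd10 of 23.9 to 83.4 TPM.

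Whether proteasome transcripts differ with ultrasound in LPS-treated cells is the question of the one contrast in the design. Differences were small. The fold changes of 47 tested members ran from -0.19 (Psmg2, a core assembly chaperone) to 0.09 (Psme4) on the log2 scale, and no member passed the test. By edgeR's quasi-likelihood test 0 of 47 had an adjusted p below 0.05, and 0% of all 12571 tested genes did. Psma5 alone had an unadjusted p below 0.05, where 4.61% of all tested genes did and 1.61% did so with a lower value under LIPUS. DESeq2 and limma-voom also called 0 members. The median absolute log2 fold change of the members was 0.04, against 0.07 over all tested genes.

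For 43 of 47 members (91.5%) the fold change had a 95% interval inside 1.25-fold in either direction, which 59.6% of all tested genes had. Inside 1.5-fold were the intervals of all 47 members and of 80.1% of tested genes. The members outside 1.25-fold were Psma8, Psmb10, Psmg2 and Psmg3. The median standard error was 0.06 for members and 0.09 for all tested genes. Beyond these 4, a difference of 1.25-fold or more in either direction lay outside the interval.

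**Figure D3:**
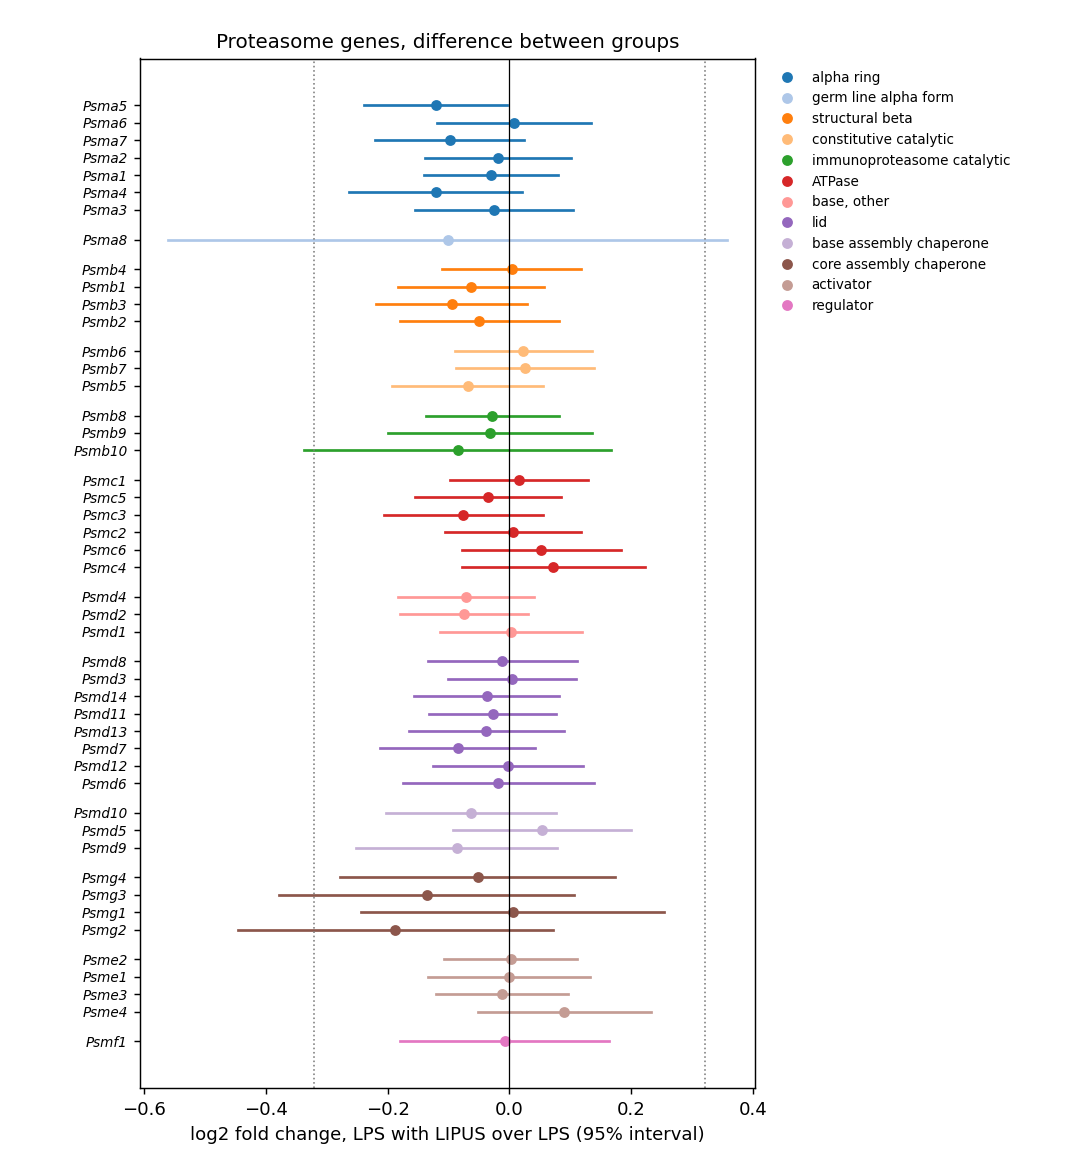
Log2 fold change of 47 proteasome genes, LPS with LIPUS over LPS, with 95% intervals from edgeR's quasi-likelihood fit, grouped and coloured by role. The dotted lines mark 1.25-fold in either direction. All points lie between -0.19 and 0.09, and the intervals of Psma8, Psmb10, Psmg2 and Psmg3 cross a dotted line.

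The 4 members with the smallest p among the lower ones belong to the core. Psma5, an alpha subunit, had 187.4, 175.3 and 181.9 CPM (counts brought to a common library size after TMM scaling) with LPS and 163.2, 179.7 and 158.0 CPM with LIPUS. LIPUS libraries 1 and 3 were below the LPS range and LIPUS library 2 was inside it. The log2 fold change was -0.12 ± 0.06 (SE, unadjusted p = 0.0447, adjusted p = 0.999).

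Psma4, another alpha subunit, had 51.6, 53.5 and 57.9 CPM with LPS and 47.6, 51.5 and 50.7 CPM with LIPUS. The groups met without overlapping, and the log2 fold change was -0.12 ± 0.07 (SE, adjusted p = 0.999). Psma7, an alpha subunit, had 169.7, 154.4 and 164.0 CPM against 149.3, 163.9 and 142.8 CPM, with LIPUS library 2 again inside the LPS range (-0.10 ± 0.06). Psmb3, a structural beta subunit, had 112.2, 112.6 and 103.5 CPM against 100.7, 110.1 and 96.6 CPM, with the same library inside the range (-0.10 ± 0.06).

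Among the higher members the smallest p belonged to Psme4, the PA200 activator. It had 94.0, 99.4 and 97.5 CPM with LPS and 98.1, 94.8 and 116.7 CPM with LIPUS, so LIPUS library 3 alone was above the LPS range. Its log2 fold change was 0.09 ± 0.07 (SE, adjusted p = 0.999), and -0.0042 without that library. Psmc4, an ATPase, had 42.5, 43.2 and 38.3 CPM against 44.5, 43.3 and 42.8 CPM (0.07 ± 0.07), where LPS library 3 was the low one.

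Psmc6, also an ATPase, had 79.3, 70.5 and 76.5 CPM against 75.97, 83.4 and 75.4 CPM (0.05 ± 0.06), with overlapping groups. Psmd5, a chaperone of base assembly, had 52.98, 52.3 and 51.5 CPM against 52.8, 50.4 and 59.5 CPM (0.05 ± 0.07). As for Psme4, its LIPUS library 3 was the high one, and without it the value was -0.01.

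The catalytic genes and activators lay near 0 in the same fit. The log2 fold changes were -0.07 ± 0.06 for Psmb5, 0.02 ± 0.05 for Psmb6 and 0.03 ± 0.05 for Psmb7, against -0.03 ± 0.05 for Psmb8, -0.03 ± 0.08 for Psmb9 and -0.08 ± 0.12 for Psmb10 (SE). Psmb5 had 59.8, 60.3 and 58.7 CPM with LPS and 57.5, 56.7 and 56.4 CPM with LIPUS, so its groups did not overlap. For Psme1, Psme2 and Psme3 the values were -0.00045 ± 0.06, 0.0020 ± 0.05 and -0.01 ± 0.05. The adjusted p was 0.999 for all of these except Psme1, where it was 1.

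By role, 6 of 7 alpha ring genes, 3 of 4 structural beta genes, 3 of 3 immunoproteasome genes and 7 of 8 lid genes had a negative fold change, while 4 of 6 ATPase genes and 2 of 3 constitutive catalytic genes had a positive one. Of the other base genes 2 of 3, of the base chaperones 2 of 3, of the core chaperones 3 of 4 and of the activators 2 of 4 were negative. None of these genes passed the test. With 1 library left out, the log2 fold change of Psmb6 reached -0.01, that of Psmb7 -0.02 and that of Psmb9 0.02, so these signs were not stable. Together 33 of 47 members (70.2%) were on the negative side, where 52.4% of all tested genes were, with a median of -0.03 against -0.01. The members' counts share 6 libraries and are not independent of each other. Without LIPUS library 2 the median was -0.06 with 41 members on the negative side, and without LIPUS library 1 it was -0.01 with 28. On the log2(TPM + 1) scale it was -0.0084 with 28. The groups did not overlap for 3 members (Psma4, Psmb5 and Psmd2, all lower with LIPUS), where they did not for 9.72% of all tested genes (4.63% lower and 5.09% higher). Which members these were depended on the scale. In TPM the groups did not overlap for Psma5, Psma7 and Psmd4, lower with LIPUS, and Psmb7, higher with LIPUS, and no gene was in both sets. Over all tested genes this held for 7.81% (2.35% lower and 5.46% higher). Psma5 had 302.8 to 312.3 TPM with LPS and 283.2 to 289.4 TPM with LIPUS, and its LIPUS library 2 thus left the LPS range that it lay inside in CPM.

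In log2 CPM, the libraries of 1 group differed among themselves over the whole set of members. In LPS library 1 and in LIPUS library 2, 35 of 47 members (74.5%) lay above their own mean over the 6 libraries, where 51.2% and 50.02% of all tested genes did. In LIPUS libraries 1 and 3 the count was 9 and 13 of 47 (19.1% and 27.7%), against 50.2% and 51.3% of all tested genes. In LPS libraries 2 and 3 it was 22 and 27 (46.8% and 57.4%), against 52.2% and 51.3%. The median deviation of the members was 0.05 in LIPUS library 2 and -0.05 in LIPUS library 1, both of the same group. Most deviations were small. A few genes left the pattern, among them Psme4 at 0.23 and Psmd5 at 0.16 in LIPUS library 3, where Psmg4 was at -0.25. Summed over all members, levels were 7415 ± 30.9 TPM with LPS and 7358 ± 138.6 TPM with LIPUS (SD, n = 3 each). LIPUS library 2 had the highest summed CPM of the 6 (5308) and the lowest summed TPM (7246), so its place depended on the scale.

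**Figure D4:**
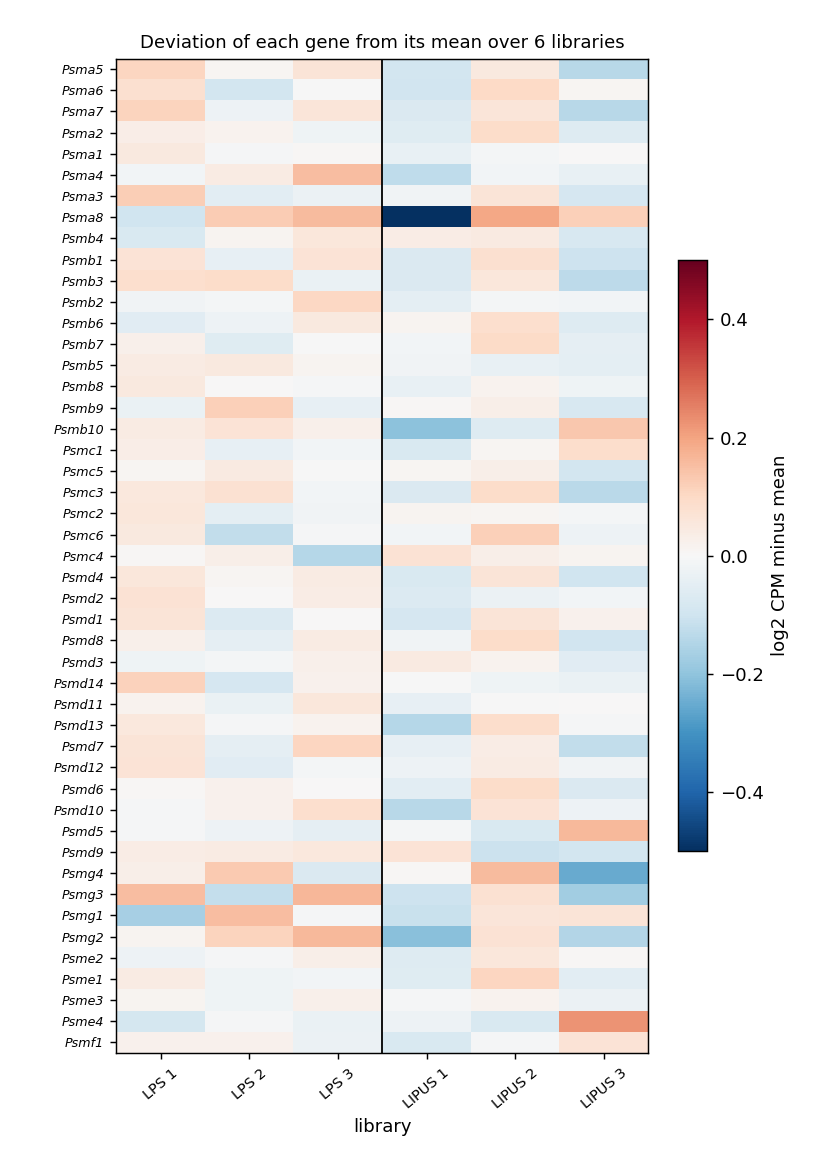
Deviation of log2 CPM from each gene's mean over the 6 libraries, for 47 proteasome genes in rows and the 6 libraries in columns, with the groups parted by a black line. Most cells are red in LPS library 1 and LIPUS library 2 and blue in LIPUS libraries 1 and 3. The strongest colour is Psma8 in LIPUS library 1 at -0.50.

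No gene that works with the proteasome passed the test either. Of 18 listed symbols of partners of the assembled particle, with Sem1 and Ecpas each also listed under a second symbol, 16 were found and tested. Their median log2 fold change was -0.0083, with 7 above and 9 below 0, where the median of all tested genes was -0.0052. Pomp, the maturation factor of the core, had 228.8 ± 2.94 TPM with LPS and 229.4 ± 1.52 TPM with LIPUS (SD, n = 3 each). The partners with the smallest p were Ube3c, a proteasome-bound ubiquitin ligase, at -0.16 ± 0.07 and Zfand5, a proteasome-binding zinc finger protein, at 0.12 ± 0.05 (log2 fold change, SE, edgeR adjusted p = 0.999 for both).

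Of 11 genes that control transcription of the proteasome, 10 lay below and 1 above 0 in fold change, between -0.08 and 0.0010 on the log2 scale with a median of -0.02, and 0 were called. Nfe2l1, the factor that restores proteasome genes when the particle is inhibited, had 275.4 ± 11.9 TPM with LPS and 270.6 ± 24.9 TPM with LIPUS. Irf1, which drives the immunoproteasome genes in response to interferon, had 7.04 ± 0.78 TPM with LPS against 6.86 ± 0.54 TPM with LIPUS. The smallest p in this list belonged to Ddi2, the protease that activates Nfe2l1, at -0.07 ± 0.05, and to the NF-kB gene Nfkb1 at -0.06 ± 0.05 (log2, SE).

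Of 6 ubiquitin genes 2 lay above and 4 below 0, with a median of -0.0034, and 0 were called. Uba6, a ubiquitin-activating enzyme, was at 0.14 ± 0.07 (log2 fold change, SE, edgeR adjusted p = 0.999). Of 13 genes that supply peptides to MHC class I, 5 lay above and 8 below 0, with a median of -0.0088, and 0 were called. Tap2, the partner of Tap1 in the transporter, had 88.8 ± 1.65 TPM with LPS and 98.6 ± 4.60 TPM with LIPUS without overlap (0.13 ± 0.05, edgeR adjusted p = 0.966). H2-K1, a classical MHC class I gene, was at -0.12 ± 0.06 and B2m, the light chain of MHC class I, at -0.06 ± 0.07 (adjusted p = 0.999 for both).

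In the transcript table, where a read can count for several transcripts, 82 of 83 member transcripts were tested and 0 of them had an adjusted p below 0.05 by edgeR, where 0% of 52257 tested transcripts did. An unadjusted p below 0.05 was reached by 2 of them, a transcript each of Psma7 and Psma5, where 5.38% of all tested transcripts did. Their fold changes ran from -0.27, for a transcript of the core chaperone Psmg3, to 0.09 on the log2 scale. In the authors' deposited table of changed genes 0 of the 48 members were listed, where 0.898% of all genes were. The smallest p of a member in the authors' deposited table of all genes was 0.0714, for Psma5, at a log2 fold change of -0.12.

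Some counts may include reads of other genes. Atg4a, Erlec1, Emc9 and the non-coding gene 3110056K07Rik overlap Psmd10, Psme4, Psme1 and Psma3 on the opposite strand, and their counts were 61.6%, 24.4%, 10.7% and 6.47% of those members' counts. Whether reads were counted by strand is not given in the sources used here, so these levels are uncertain. RefSeq also annotates processed copies of Psma5, Psmb5, Psmb6 and Psmb7, and Psme2b is a copy of Psme2, with which reads can be shared.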

How the data were processed

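Per the labels' protocols, fragmented poly(A) RNA went into NEBNext Ultra libraries, which were read from both ends on an Illumina instrument. Build mm10 and bcl2fastq are named in the submitters' processing notes. Which aligner, counter and annotation were used was not given in the sources used here. The authors deposited raw read counts per gene and per transcript with lengths and TPM (count over length, scaled to the same total per library, per the file headers and values). Tables of the authors' own comparison hold, per the file headers, a log2 fold change, an unadjusted p-value and a normalised count per library (a signal), whose test is not stated.

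From the counts, edgeR 4.0.16 (R 4.3.3) was run on the table of 39089 genes: filterByExpr (minimum count 10, by group, 12571 kept), TMM scaling, quasi-likelihood test with group as the one term, two-sided, Benjamini-Hochberg over all genes tested, threshold 0.05. The biological coefficient of variation was 5.84%. Transcripts were fitted likewise. Immuno to constitutive ratios used counts per length, compared by exact permutation over 20 arrangements. The quasi-likelihood test was first tested on simulated data. Libraries of a group differed by more than sampling noise, and each was counted as 1 replicate. That difference does not show that they were separate cultures. Alternatives were DESeq2 1.42.0, limma 3.58.1 (voom, and trend on log2(TPM + 1) and log2(TPM + 0.1)), other scalings and filters, a block for the replicate number, and each library left out in turn.

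Members and lists were chosen with earlier results of these data known. Values in every library are given for the catalytic genes, Psme1 to Psme3, Psmb11, the member with the highest mean TPM and the 4 members with the smallest p in each direction. From each of 4 partner lists the 2 genes with the smallest p are named, with Pomp, Nfe2l1, Irf1, Tap1 and B2m. A few genes that this rule also names are not reported here.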

Additional observations from a re-analysis of the deposited data

How the results depend on the processing

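The count of members called was 0 under every alternative run, among them DESeq2, limma-voom, both TPM fits, no filter, the replicate block and each library left out. The count of member transcripts called was 0 under those run on transcripts, which were a CPM filter, the replicate block and each library left out. The count over all genes was 31 with no filter, 5 with the replicate number as a block and 0 to 6 when 1 library was left out, and over all transcripts it was 11 with the block and 0 to 10 with 1 library left out. Same-numbered libraries did not deviate together (correlations 0.01, -0.07 and 0.01 over genes). The labels give repeat numbers and no pairing, and a correlation over all genes cannot show that there was none. With the block the members' median was -0.03. Leaving out 1 library moved that median between -0.06 and -0.01, and the number of members on the negative side between 28 and 41. It moved the difference in log2 ratio between 0.02 and 0.06 for Psmb8 to Psmb5, between -0.11 and 0.0063 for Psmb9 to Psmb6 and between -0.24 and -0.05 for Psmb10 to Psmb7. With the shortest curated transcript as length, an alternative chosen after the data were seen, only the divisor changes. The level of Psmb9 relative to Psmb6 was then 0.152, and that of Psmb10 relative to Psmb7 was 0.0672. On the log2(TPM + 1) scale the members' median was -0.0084 with 28 on the negative side, and the median of all genes was 0.01. The intervals of Psma8, Psmb10, Psmg2 and Psmg3 reached past 1.25-fold, so a difference of that size lay inside them.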
